A study of Rattus norvegicus with 12 samples.

Results

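The juxtaparanodal Kv1 channel complex holds shaker-type potassium channels of the Kv1 family beneath the myelin sheath, on the far side of the paranodal junctions that flank each node of Ranvier. Expression of its genes was measured by RNA-seq in a 1-mm segment through the injury site of the rat spinal cord. Of the 10 genes chosen by name as members, 7 were matched to an entry among the 17423 genes listed in each data table. These were Cntn2, Kcna1, Kcna4, Kcnab1, Kcnab2, Lgi3 and Dlg4. Cntn2, Kcna1, Kcnab1 and Lgi3 were matched directly through their RGD identifiers (rat genome database numbers), and Kcna4, Kcnab2 and Dlg4 through the order of neighbouring genes. Cntnap2, Kcna2 and Adam22 could not be matched and were not analysed here.

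Female rats of the AN and SD strains, aged 16 to 18 weeks at injury, were compared. SD rats (Sprague-Dawley, Hsd:SD) have an intact thymus. AN rats (athymic nude, Hsd:RH-rnu/rnu) are homozygous for the nude mutation and lack normal thymus-derived T cells. All rats received a contusion of 200 kdyn at T8/T9, with no uninjured group used here, and tissue was taken at 1 week (acute phase) or 8 weeks (chronic phase). There were 3 rats in each of the 4 groups, 12 in all, and each rat was sampled at a single phase. The strains differ in stock as well as in T cells, and these cannot be told apart. The tables give a single FPKM value (a measure of transcript abundance that accounts for gene length) for each group of 3 rats. The spread between rats and the number of reads behind each gene's value cannot be read from these group values. No test was therefore made from them, the authors' own test columns were not used, and every difference is described without an error. The authors normalized the acute and the chronic table separately, so levels in the 2 phases are set side by side only as a description.

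Contactin-2 (Cntn2), an adhesion molecule of the axonal and glial membranes, pairs with Caspr2, the product of Cntnap2, and this scaffold keeps Kv1 channels clustered at the juxtaparanode. The channels are tetramers of pore-forming subunits such as Kv1.1 (Kcna1), Kv1.2 (Kcna2) and Kv1.4 (Kcna4), with cytoplasmic beta subunits (Kcnab1, Kcnab2) that affect their gating and transport. ADAM22 binds secreted LGI proteins outside the cell and membrane scaffolds such as PSD-95 (Dlg4) inside it. In intact fibres the sheath covers the channels, and loss of myelin uncovers them, which lets potassium leave the axon and impairs conduction. For this reason Kv1 channels are a known target of potassium channel blockers in demyelinating disease and spinal cord injury.

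In the acute phase all 6 members that passed the level filter had a lower FPKM in AN than in SD rats, and 4 of the 6 were at least 2-fold lower: Cntn2, Kcna1, Kcnab1 and Lgi3. The filter asked for an FPKM of at least 1 in at least 1 strain of the phase and a value above 0 in both strains, and all 6 were in fact above 1 FPKM in both strains of both phases. Of all genes past it, 11.4% (1291 of 11326) were at least 2-fold lower in AN rats. In the chronic phase the same 6 members were again below SD, but 1 of 6, Kcnab1, was at least 2-fold lower, against 6.33% of all genes (723 of 11429). The median log2FC of the members, the log2 of AN over SD FPKM, was -1.17 at 1 week and -0.25 at 8 weeks. Over all genes these medians were close to 0, at -0.0016 and 0.0044. The members' chronic median was -0.0896 over the 4 directly matched members and -0.41 over all 7 without the level filter. Dlg4 and Kcnab2 were below SD by less than 2-fold in both phases. The called members lay between 2-fold and 3-fold, and at a 3-fold threshold 0 were called in either phase, against 6.1% of all genes at 1 week and 3.56% at 8 weeks.

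**Figure D1:**
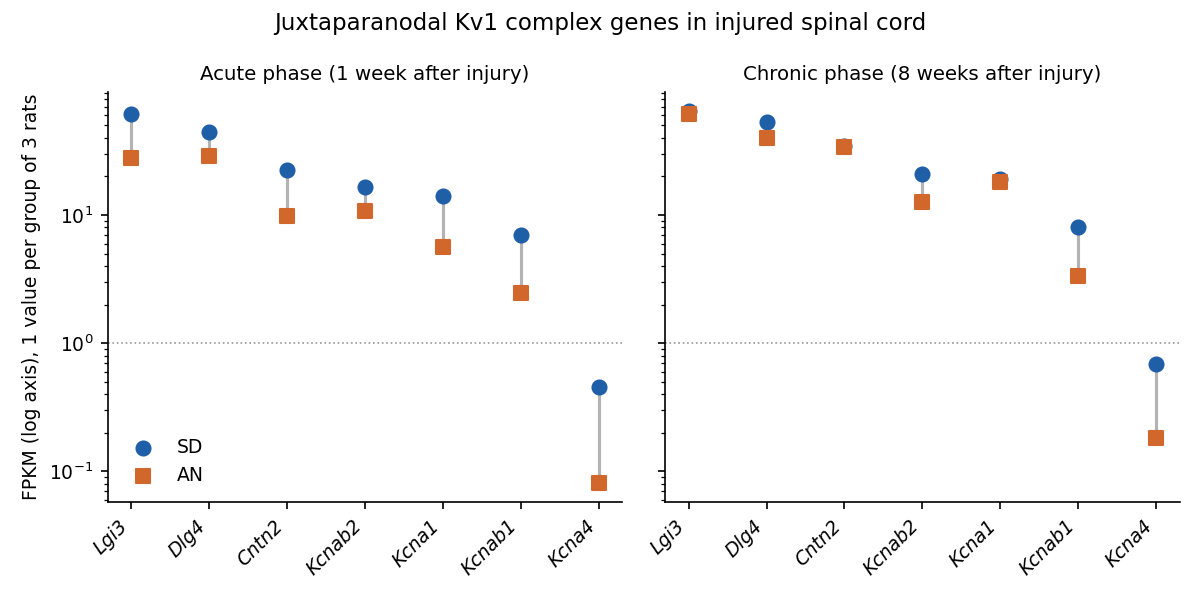
FPKM of the 7 matched members on a log axis in the acute (left) and chronic (right) phase, with 1 circle for SD and 1 square for AN rats, each a group of 3 rats, and a dotted line at the filter of 1 FPKM. The squares lie below the circles for every member in the acute phase, whereas in the chronic phase those of Cntn2, Kcna1 and Lgi3 nearly cover the circles.

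Cntn2 (RGD:3821), the adhesion molecule of the complex, lies at chr13:45399915-45428789 of the RN4 rat genome. Its FPKM was 22.6 in SD against 9.88 in AN rats at 1 week, and 34.3 against 33.7 at 8 weeks. The acute AN group stood apart below the other 3 groups, and the chronic groups were nearly level. Cntn2 was 2.29-fold lower in AN rats at 1 week (log2FC -1.19), and in the chronic phase AN rats had 98.3% of the SD value (log2FC -0.02). Of all genes past the filter, 9.15% had a lower acute log2FC than Cntn2, and 45.3% a lower chronic log2FC.

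Kcna1 (RGD:2949) encodes Kv1.1, a pore-forming subunit, and was the more abundant of the 2 matched pore subunits. It lies at chr4:163011777-163013522 (RN4). Its FPKM was 14.1 in SD against 5.64 in AN rats at 1 week, and 19.3 against 18.1 at 8 weeks. As for Cntn2, the acute AN value was the lowest and the chronic values lay close together. Kcna1 was 2.50-fold lower in acute AN rats (log2FC -1.32), whereas chronic AN rats had 94.1% of the SD value (log2FC -0.09).

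Kcna4 (RGD:2952), which encodes Kv1.4, a rapidly inactivating subunit, was the lowest member in all 4 groups and did not pass the level filter in either phase. Its locus at chr3:92781795-92784921 (RN4) was named through the order of its neighbours Arl14ep and Mettl15. The FPKM was 0.452 in SD against 0.0806 in AN rats at 1 week, and 0.684 against 0.181 at 8 weeks. Both AN values were below both SD values, at a log2FC of -2.49 at 1 week and -1.92 at 8 weeks. At such levels the ratio depends on the scale, and with 1 FPKM added to each value it became -0.43 and -0.51. Kcna1 was 31.2-fold above Kcna4 in acute SD and 69.9-fold above it in acute AN rats on the FPKM scale.

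The beta subunits, which bind the cytoplasmic face of the channel, did not share the pattern of Kcna1. Kcnab1 (RGD:61827, chr2:154837841-155145882, RN4) encodes Kv-beta-1, a subunit that can confer fast inactivation. Its FPKM was 6.98 in SD against 2.45 in AN rats at 1 week, and 8.01 against 3.35 at 8 weeks. Both AN groups were below both SD groups. Kcnab1 was 2.85-fold lower in AN rats at 1 week (log2FC -1.51) and 2.39-fold lower at 8 weeks (log2FC -1.26). Of all genes, 4.86% had a lower chronic log2FC than Kcnab1.

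Kcnab2 (RGD:61828, chr5:169624099-169710725, RN4) encodes Kv-beta-2, known as the main beta subunit of axonal Kv1 channels. The FPKM was 16.5 in SD against 10.8 in AN rats at 1 week, and 20.8 against 12.6 at 8 weeks. As for Kcnab1, both SD values were above both AN values, but the differences were smaller. Kcnab2 was 1.53-fold lower in AN rats at 1 week (log2FC -0.61) and 1.66-fold lower at 8 weeks (log2FC -0.73), so that it was further below SD in the chronic than in the acute phase, unlike the other 5 members past the level filter. A second identifier at this locus (RGD:1565070) was not above 0 in every group and was not counted.

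Because FPKM accounts for length, subunits could also be set against each other within a group. Kcnab2 was 1.17-fold above Kcna1 in acute SD, 1.92-fold in acute AN and 1.08-fold in chronic SD rats. In chronic AN rats the order was turned, with Kcnab2 at 0.694 times the FPKM of Kcna1. Kcnab2 exceeded Kcnab1 in every group, by 2.37-fold in acute SD, 4.43-fold in acute AN, 2.60-fold in chronic SD and 3.75-fold in chronic AN rats.

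Lgi3 (RGD:1311079, chr15:50932145-50939273, RN4) encodes a secreted protein of the LGI family, whose members bind ADAM22 and related receptors. It had the highest FPKM of the complex in 3 of the 4 groups. The values were 61.3 in SD against 27.8 in AN rats at 1 week, and 65.3 against 61.3 at 8 weeks. The acute AN group alone was low, while the other 3 groups spanned 61.3 to 65.3. Lgi3 was 2.20-fold lower in acute AN rats (log2FC -1.14) and stood at 93.9% of SD in chronic AN rats (log2FC -0.09).

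Dlg4 (RGD:68424, chr10:56864459-56890626, RN4) encodes PSD-95, a scaffold found at both juxtaparanodes and excitatory synapses. The FPKM was 44.4 in SD against 28.7 in AN rats at 1 week, and 53.2 against 39.9 at 8 weeks. Both AN values were below both SD values. Dlg4 was 1.55-fold lower in AN rats at 1 week (log2FC -0.63) and 1.33-fold lower at 8 weeks (log2FC -0.41). In acute AN rats, where Lgi3 was low, Dlg4 was the highest member.

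By FPKM the order of the members in SD rats was Lgi3, Dlg4, Cntn2, Kcnab2, Kcna1, Kcnab1 and Kcna4 in both phases. In acute AN rats Dlg4 stood above Lgi3 and Kcnab2 above Cntn2, and in chronic AN rats Kcna1 stood above Kcnab2. Kcnab1 and Kcna4 were the lowest in every group. With no spread between rats, it cannot be said which neighbours in these orders differed.

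For 3 of the 6 members, Cntn2, Kcna1 and Lgi3, the acute log2FC was at least 1 below the chronic log2FC. Of all genes, 5.93% (659 of 11108) met this. This difference of log2FC, acute minus chronic, was -1.23 for Kcna1, -1.17 for Cntn2 and -1.05 for Lgi3. It was smaller in size for Kcnab1 (-0.25) and Dlg4 (-0.21), and it was 0.12 for Kcnab2. The median over the 6 members was -0.65, against -0.04 over all genes, and it was -1.11 over the 4 directly matched members. Among themselves the 6 members spanned log2FC from -1.51 for Kcnab1 to -0.61 for Kcnab2 in the acute phase, and from -1.26 for Kcnab1 to -0.02 for Cntn2 in the chronic phase.

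Levels of the same strain in the 2 separately normalized tables are set side by side here. In AN rats the chronic over acute FPKM ratio was 3.41 for Cntn2, 3.21 for Kcna1 and 2.20 for Lgi3. For Dlg4, Kcnab1 and Kcnab2 it was 1.39, 1.37 and 1.16. In SD rats the same ratio lay between 1.06 for Lgi3 and 1.52 for Cntn2 among the 6 members. The summed FPKM of the 7 members was 166 in SD against 85.5 in AN rats at 1 week, and 202 against 169 at 8 weeks. AN rats thus had 51.4% of the SD sum at 1 week and 83.9% at 8 weeks. Lgi3 and Dlg4 weighed most in these sums. In acute SD rats they made up 36.9% and 26.7% of the sum, against 8.5% for Kcna1.

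**Figure D2:**
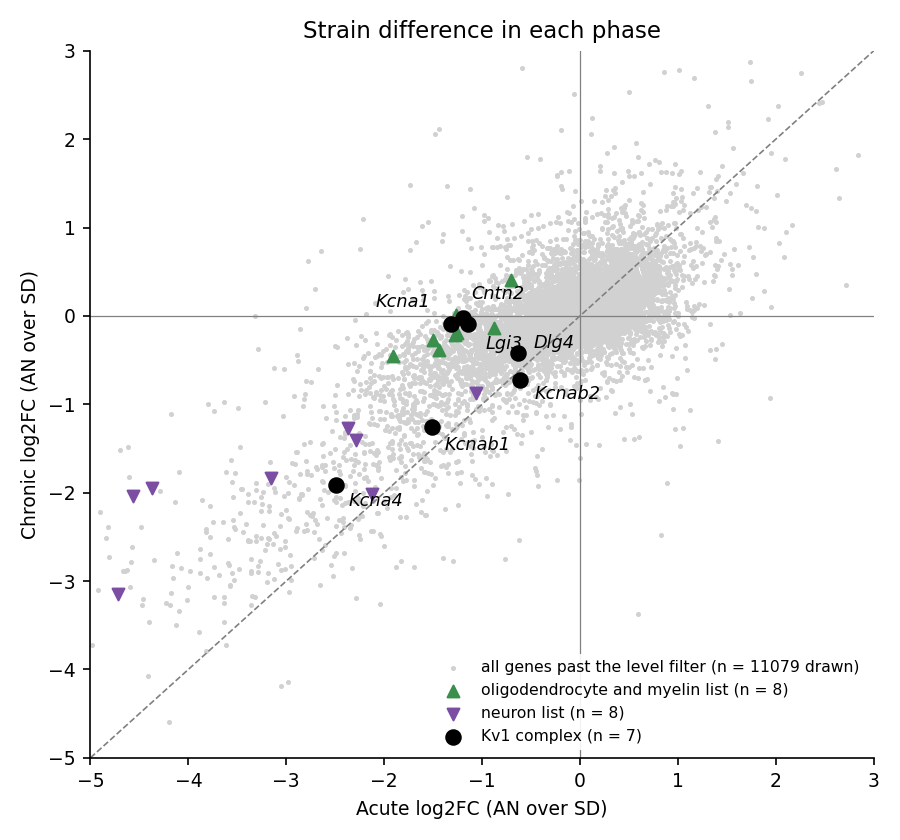
Acute (horizontal) against chronic (vertical) log2FC of AN over SD for the 7 members (black circles), the oligodendrocyte and myelin list (green), the neuron list (purple) and all genes past the level filter in both phases (grey), with a dashed line where the phases are equal and 29 genes outside the axes not drawn. Cntn2, Kcna1 and Lgi3 lie together at an acute log2FC between -1.32 and -1.14, among the myelin genes, and Kcnab1 and Kcna4 lie lower, with log2FC below -1 on both axes, although Kcna4 is below the level filter.

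Across the 4 groups the profiles of Cntn2 and Kcna1 were the closest pair of members. Likeness was measured as the Euclidean distance between the 4 log2 FPKM values after each gene was centred on its own mean. The distance was 0.156 for Cntn2 and Kcna1, 0.242 for Kcnab2 and Dlg4, and 0.471 for Kcna1 and Lgi3. Among 3236 directly named genes whose FPKM reached 1 in every group, those closest to Cntn2 were Sec14l5 (0.0850), Clmn (0.0855), Cpeb1 (0.0948), Tmeff2 (0.105) and Daam2 (0.130). For Kcna1 they were Sema3b (0.0711), Sec14l5 (0.0788), Slc45a3 (0.0986), Slc4a3 (0.116) and Ttyh1 (0.122). Sec14l5 was on both lists, with an FPKM of 7.10 in SD against 3.01 in AN rats at 1 week, and 10.1 against 9.83 at 8 weeks. With 4 group values a gene, such distances describe these tables only.

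The start regions of Cntn2 and Kcnab1 are printed because these genes carried the contrast between a difference seen mainly in the acute phase and one seen in both. Each is 300 bases from RefSeq on the GRCr8 build, from 250 before to 50 after an annotated start, at chr13:46527976-46528275 (minus strand) for Cntn2 and chr2:151614301-151614600 (plus strand) for Kcnab1. Both are written 5′ to 3′ along the gene's own strand, with capitals marking CpG dinucleotides.
Cntn2: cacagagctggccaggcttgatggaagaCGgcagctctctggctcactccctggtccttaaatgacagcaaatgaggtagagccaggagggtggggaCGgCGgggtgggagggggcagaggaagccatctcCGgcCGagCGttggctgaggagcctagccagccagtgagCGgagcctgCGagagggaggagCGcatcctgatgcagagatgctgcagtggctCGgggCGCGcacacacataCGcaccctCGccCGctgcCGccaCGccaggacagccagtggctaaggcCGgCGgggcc
Kcnab1: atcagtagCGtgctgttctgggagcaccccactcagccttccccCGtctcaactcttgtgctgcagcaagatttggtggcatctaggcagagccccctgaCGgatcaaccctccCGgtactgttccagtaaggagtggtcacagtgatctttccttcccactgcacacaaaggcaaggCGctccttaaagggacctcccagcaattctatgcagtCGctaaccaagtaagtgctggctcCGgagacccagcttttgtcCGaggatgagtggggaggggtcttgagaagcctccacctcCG
The Cntn2 window held 19 CpG, with a GC content of 67.0%, and the Kcnab1 window held 9, with 56.7%. The median over all 33469 windows of the table was 7 CpG and 51.7% GC. Windows were found for 5 of the 7 members. Among the other 3, the CpG count was 28 for Kcnab2, 9 for Dlg4 and 1 for Kcna4. On both strands 4 motifs were searched. The SOX core ACAAAG was in the Kcnab1 window alone among the 5, and in 18.8% of all windows. None of the 5 held the GC box GGGCGG (33.1% of all windows), the TATA box TATAAA (14.2%) or the cyclic AMP response element TGACGTCA (1.83%).

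Relatives of the members in the same gene families were read from the same tables. Other Kv1 subunits were measured for Kcna3, Kcna5, Kcna6 and Kcnab3, and 3 of these 4 were at least 2-fold lower in AN rats at 1 week and 1 at 8 weeks. At 1 week 2 of the 3, Kcna5 and Kcnab3, passed the filter through the SD value alone, which favours a call in this direction. Kcna6, which encodes Kv1.6, had a higher FPKM than Kcna1 in every group, at 23.5 in SD against 8.54 in AN rats at 1 week, and 30.6 against 22.5 at 8 weeks. Its log2FC was -1.46 at 1 week and -0.44 at 8 weeks. Kcna3, which encodes the Kv1.3 channel known from lymphocytes and microglia, was the exception. Its FPKM was 4.10 in SD against 7.72 in AN rats at 1 week, and 4.07 against 3.69 at 8 weeks, so it was 1.88-fold higher in acute AN rats. Kcnab3, the remaining beta subunit, resembled Kcnab1, with a log2FC of -1.95 at 1 week and -1.30 at 8 weeks.

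Among the relatives of Lgi3 and Adam22, 3 of 5 could be matched, and 2 of 3 were at least 2-fold lower in AN rats at 1 week and 0 at 8 weeks, with 1 of the 2, Lgi1, past the filter through SD alone. Adam23, a receptor for LGI proteins, had a log2FC of -1.13 at 1 week and 0.20 at 8 weeks. Lgi1, whose FPKM was far below that of Lgi3, had -1.73 and -0.55. Of the membrane scaffolds related to Dlg4, Dlg2 (PSD-93) had an acute log2FC of -1.75 and Dlg1 (SAP97) one of -0.03. In the chronic phase these were -0.64 and 0.30.

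Genes of the neighbouring domains of the myelinated axon were lower in acute AN rats as well. At the paranode, where axon and glia form septate-like junctions, 2 of 4 matched genes were at least 2-fold lower at 1 week and 0 at 8 weeks, with median log2FC of -0.97 and -0.24. Cntnap1, which encodes the paranodal relative of Caspr2, had -1.71 and -0.76. Nfasc, whose glial and axonal isoforms serve paranode and node, lies near Cntn2 on chromosome 13 and had a log2FC of -0.86 and -0.22. At the node of Ranvier, where sodium channels are gathered, 9 of 10 genes were at least 2-fold lower at 1 week and 4 of 10 at 8 weeks, with median log2FC of -1.46 and -0.63. At 1 week 2 of the 9 passed the filter through SD alone. The node gene Scn4b, a sodium channel beta subunit, had a log2FC of -2.22 and -0.48.

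Markers of the cell types in the segment are set beside the members here. Of the oligodendrocyte and myelin list 6 of 8 matched genes were at least 2-fold lower in acute AN rats and 0 of 8 in chronic AN rats. Their median log2FC was -1.27 and -0.20, close to those of Cntn2, Kcna1 and Lgi3. Mobp, a protein of compact central myelin, had -1.91 and -0.46, the lowest of the list in both phases. At 8 weeks 6 of the 8 were below SD, and Cldn11 was above it with a log2FC of 0.40. The summed FPKM of this list was 6489 in SD against 2932 in AN rats at 1 week, and 6789 against 6283 at 8 weeks.

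Of the neuron list 8 of 8 matched genes were at least 2-fold lower in acute AN rats and 7 of 8 in chronic AN rats, as Kcnab1 was in both phases. The median log2FC was -2.76 and -1.89, and the summed FPKM was 1365 in SD against 215 in AN rats at 1 week, and 1235 against 393 at 8 weeks. Snap25, a synaptic fusion protein, had a log2FC of -4.72 and -3.14. Every one of the 6 members had a smaller acute difference than the median of the neuron list, but the list overlapped the members. Its gene Eno2 had a log2FC of -1.06 and -0.87, an acute difference smaller than those of Cntn2, Kcna1, Kcnab1 and Lgi3. In such bulk tissue fewer cells of a type and less RNA per cell cannot be told apart, and the part of cell composition in the members' differences was not tested.

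**Figure D3:**
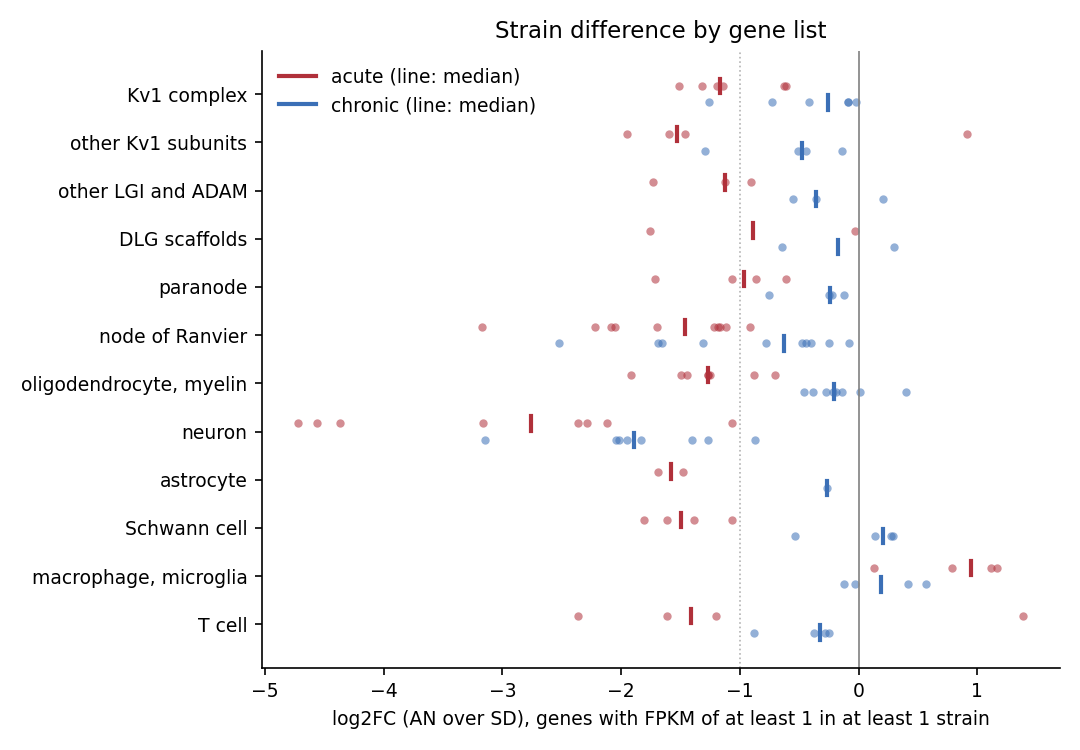
log2FC of AN over SD for each gene past the level filter in the acute (red) and chronic (blue) phase, by gene list, with a line at each list's median and a dotted line at 2-fold lower. The members' medians of -1.17 and -0.25 lie near those of the oligodendrocyte and myelin list, -1.27 and -0.20, while the neuron list lies at -2.76 and -1.89.

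Schwann cell genes, from cells that can enter an injured cord, were at least 2-fold lower in 4 of 4 at 1 week and 0 of 4 at 8 weeks, with median log2FC of -1.50 and 0.21. Their summed FPKM was 1702 in SD against 593 in AN rats at 1 week, and 1588 against 1842 at 8 weeks. Macrophage and microglia genes were at least 2-fold higher in acute AN rats in 2 of 4, Itgam and Cd14, and none was 2-fold lower, against 2.07% of all genes (234 of 11326) at least 2-fold higher, with median log2FC of 0.95 and 0.19. Their summed FPKM was 455 in SD against 645 in AN rats at 1 week, and 331 against 339 at 8 weeks. Csf1r, the highest of the 4 by FPKM, had a log2FC of only 0.13 at 1 week and -0.12 at 8 weeks. In the chronic phase 2 of these 4 genes were below SD. Of the astrocyte list 2 of 6 genes were matched, and both were at least 2-fold lower in acute AN rats (median -1.58). The astrocyte gene Gfap was listed at 0 in chronic SD rats beside 3957 FPKM in acute SD and 5824 FPKM in chronic AN rats. A listed 0 can be a failed estimate and is not read as absence, so this list was not summed there. In the chronic phase its remaining gene, Slc1a2, had a log2FC of -0.27.

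Of the T cell markers past the level filter, 3 of 4 were at least 2-fold lower and 1 of 4 at least 2-fold higher in acute AN rats, and 0 of 4 passed 2-fold in either direction in chronic AN rats, where 2.27% of all genes (260 of 11429) were at least 2-fold higher. Of the 3 lower acutely, 2, Cd3e and Cd3g, passed the filter through SD alone. Cd3g, part of the T cell receptor complex, was 5.15-fold lower in AN rats at 1 week and 1.84-fold lower at 8 weeks. Cd3e, another part of it, had an FPKM of 1.04 in SD against 0.339 in AN rats at 1 week, and 0.837 against 0.962 at 8 weeks. Cd4, a coreceptor that rat macrophages can also express, was 2.30-fold lower in acute AN rats. Cd8a, another such coreceptor, was 2.62-fold higher in acute AN rats. The median log2FC of the genes past the filter, 4 of 5 in each phase, was -1.41 and -0.33, but only 3 genes passed in both.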

How the data were processed

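Polyadenylated RNA of 12 injured spinal cords was sequenced as paired-end reads. Per the submitters' notes and methods, adapters were removed with cutadapt, reads were mapped to RN4 with TopHat 1.5.0, and transcripts were assembled with Cufflinks 0.0.6 under quartile normalization. The authors deposited 1 FPKM value per gene for each group, in 1 table per phase. The tables also hold their fold change, test statistic, p-value, q-value and significance columns, which were not used. Quartile normalization makes FPKM relative to the bulk of expressed genes.

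Computed here, with Python 3.11.15 and pandas 2.3.3, were log2 ratios of AN over SD FPKM without a pseudocount, counts at 2-fold and medians, all checked on simulated data. Tables name genes by RGD identifier. Symbols came from the study's supplementary gene table (symbols only) and RefSeq synonyms (4470 identifiers), and otherwise from gene order between named flanks. Of 2932 held-out genes named again by order, 95.3% were right, with tolerances set in view of this value and after a looser rule had put Cntnap2 on an implausibly short locus. By type of evidence it was 92.4% for that behind Kcna4, 93.2% for Kcnab2 and 99.5% for Dlg4. The held-out genes were all known to be listed, which was not known for these members, so the rates may be too high for them. The Kcnab2 locus lists a second identifier, and the one above 0 in every group was taken.

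Members and lists were chosen with earlier results of these data known. Named from each list were at most 4 genes, those with the highest summed FPKM or the largest acute log2FC, and for Cntn2 and Kcna1 the 5 nearest genes. Promoters and motifs were chosen after values were seen. Alternatives tried were other pseudocounts, scalings, level filters and fold thresholds, and members matched directly.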

Additional observations from a re-analysis of the deposited data

How the results depend on the processing

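Of 102 values recomputed under alternatives, 77 moved by no more than 0.1 (log2) or 1.5-fold (counts and percentages), 25 moved further and 0 changed direction. At a 3-fold threshold 0 members were called in either phase, so the counts rest on differences between 2-fold and 3-fold, while at 1.5-fold 6 of 6 members were called in the acute phase (18.0% of all genes) and 2 of 6 in the chronic phase (10.6%). Without a level filter for members, an alternative chosen after seeing the data that brings in Kcna4, the acute count was 5 of 7 and the chronic count 2 of 7, with a chronic median of -0.41, against 15.9% and 9.35% of all genes at least 2-fold lower without the filter. With directly matched members only, which drops Kcnab2 and Dlg4, the chronic median was -0.0896 and the median difference between phases -1.11. Rescaling each group to an equal sum of FPKM moved the acute members' median to -1.29 and the acute median of all genes to -0.13. A pseudocount of 1 FPKM lowered the percentage of all genes at least 2-fold lower to 7.51% (acute) and 4.00% (chronic), and a level filter of 5 FPKM lowered the chronic one to 3.92%. Of 56 values of single members 14 moved by more than 0.1, all in the same direction as before.

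Leaving out each rat was not run because the tables hold 1 value per group. No paired analysis was possible because the columns carry no replicate numbers and no result comes from a test. Read depth per gene is unknown, so the lowest member, Kcna4, carries an unknown counting error.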
